A study of Homo sapiens with 4 samples.

Results

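ZNF521 and ZNF423 are paralogous genes for large nuclear proteins built mainly of C2H2 zinc fingers. They were taken as 2 of the 61541 genes in a count table of RNA from MDA-MB-231 cells, a human breast cancer cell line of basal, mesenchymal character. ZNF521 was chosen by its read counts in this table, where it had the clearest rise in cadmium-resistant cells, and ZNF423 was added as its paralog. The contrast of cadmium with control therefore describes ZNF521 and is not a test of it.

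The cadmium group was MDA-MB-231 cells passaged serially in medium with cadmium sulfate, at a lower dose first and then at 10 µM. The study calls these cells cadmium-resistant, and the group had 2 libraries (n = 2). The control group was the parental cells passaged serially in ordinary medium, also with 2 libraries (n = 2). Both groups derive from the same line. The labels call the controls biological replicates and the cadmium libraries replicates, so the spread between the cadmium libraries may be technical. Control libraries are called control 2 and control 3, as in the count table, and cadmium libraries cadmium 1 and cadmium 2.

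Total reads assigned to genes ranged from 51934729 to 61916007 per library. The controls stood apart from each other. For 12924 genes whose mean normalized count reached 100, the log2 ratio within the control pair had a robust standard deviation of 0.56, against 0.16 within the cadmium pair. A normalized count is a raw count divided by the library's DESeq2 size factor, which lay between 0.940 and 1.06. TPM values also divide by gene length and scale each library to 1 sum, which allows genes to be compared. The markers VIM, CD44, AXL, KRT18, EGFR and CAV1 were high in all 4 libraries, with a summed level of 3862 to 4207 TPM. The luminal regulators ESR1, PGR and FOXA1 had at most 29.6 normalized counts in a library. The luminal genes EPCAM and GATA3 were above this, EPCAM with 2410 normalized counts in control 2 and 662 to 774 in the other libraries.

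ZNF521, also known as early haematopoietic zinc finger, is active in immature blood, neural and mesenchymal cells. Its N-terminal motif of the FOG type recruits the NuRD complex, which remodels chromatin and deacetylates histones. The protein holds back the B cell and adipocyte factor EBF1 and the osteoblast factor RUNX2, and it can enhance the output of the Hedgehog factors GLI1 and GLI2. ZNF423 binds the same EBF factors, joins SMAD proteins in the response to bone morphogenetic proteins (BMPs), and promotes commitment to the adipocyte lineage, which ZNF521 restrains.

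ZNF521 (ENSG00000198795) occupies chr18:25061924-25352190 on the minus strand of hg38, a span of 290 kb. The annotation used for counting gives it 18 separate exon blocks with 6225 exonic bases. The largest block holds 3353 of them, or 53.9%. ZNF423 (ENSG00000102935) occupies chr16:49487524-49857919, also on the minus strand, a span of 370 kb with 14 exon blocks and 8974 exonic bases. The coding sequences of their MANE Select transcripts were 3936 and 3879 bases, and 2598 of 3738 aligned bases were identical (69.5%). The first 36 coding bases encode the start of the NuRD-binding motif, and they are printed to show how far the paralogs differ in bases where they share this function. They lie at chr18:25350911-25350946 and chr16:49855739-49855774 of hg38, are read on the minus strand, and have the bases that differ in capitals.
ZNF521: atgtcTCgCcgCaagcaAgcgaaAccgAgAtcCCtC
ZNF423: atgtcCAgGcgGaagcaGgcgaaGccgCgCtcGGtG

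In this stretch 11 bases differed and 25 were identical. Over the whole alignment, the most similar window of 150 columns still had 25 differing columns. The longest run of bases shared by any annotated transcripts of both genes was 26 bases long. It lies at chr18:25225759-25225784, inside the largest ZNF521 exon block, and at chr16:49636999-49637024, and it is printed because it bounds how far a read could match both genes exactly.
shared run: cacctgctggacatgcacacctttgt

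ZNF521 transcripts were scarce in control cells and reached a moderate level in cadmium-resistant cells. The raw count was 22 in control 2 and 32 in control 3, and it was 698 in cadmium 1 and 611 in cadmium 2. Exact Poisson 95% intervals for these counts were 13.8 to 33.3, 21.9 to 45.2, 647 to 752 and 564 to 661. The cadmium intervals lay far above the control intervals, and intervals within each group overlapped. They cover counting error only. Both mates of a pair were counted, so fragments number fewer than reads and the intervals are too narrow.

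After normalization the controls held 20.8 (control 2) and 34.0 (control 3) ZNF521 counts and the cadmium libraries 695 and 603. The group means were 27.4 ± 9.34 and 649 ± 64.6 (SD, n = 2 each), a 23.7-fold ratio. DESeq2 gave a log2 fold change of 4.57 (SE 0.41). In bulk RNA, more cells with the transcript and more transcript per cell cannot be told apart. Both cadmium libraries exceeded both controls whichever pair was compared, by 33.4-fold and 29.0-fold over control 2 and by 20.4-fold and 17.7-fold over control 3. Control 3 held 1.63 times the level of control 2. The fold change was 4.25 on the log2 scale without control 2 and 4.95 without control 3.

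On the TPM scale, ZNF521 moved from the low part of the transcriptome to its upper part. Its level was 0.242 and 0.427 TPM in control 2 and control 3, and 8.77 and 7.33 TPM in cadmium 1 and cadmium 2. In the controls, 19.1% and 24.5% of the genes with a read had a lower TPM. In the cadmium libraries this share was 64.0% and 62.4%. ZNF521 was thus of moderate level in the cadmium libraries.

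Few genes were higher by as much in every pairing. Of 14357 genes whose mean normalized count reached 50, 4 were at least 4.11 higher in every pairing of 1 cadmium and 1 control library. This minimum on the scale of log2(normalized count + 1) was the smallest ZNF521 difference and so came from the contrast that chose the gene. Genes lower by as much were not counted. The 4 genes were ZNF521 itself, the endothelial receptor kinase TIE1, the BMP receptor ACVRL1 and the metallothionein MT1M. All 4 had control means below 50 normalized counts and passed the minimum mean only through the cadmium libraries. In the same set, 119 genes (0.829%) differed by this much in either direction between the 2 controls and 1 gene between the 2 cadmium libraries. Each of these counts rests on 1 pair of libraries, whereas the 4 genes had to be higher in every pairing. By DESeq2 adjusted p, ZNF521 ranked first among the higher genes, ahead of TIE1 with a log2 fold change of 4.88 (SE 0.56). This rank is what chose the gene and is no further evidence.

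**Figure D1:**
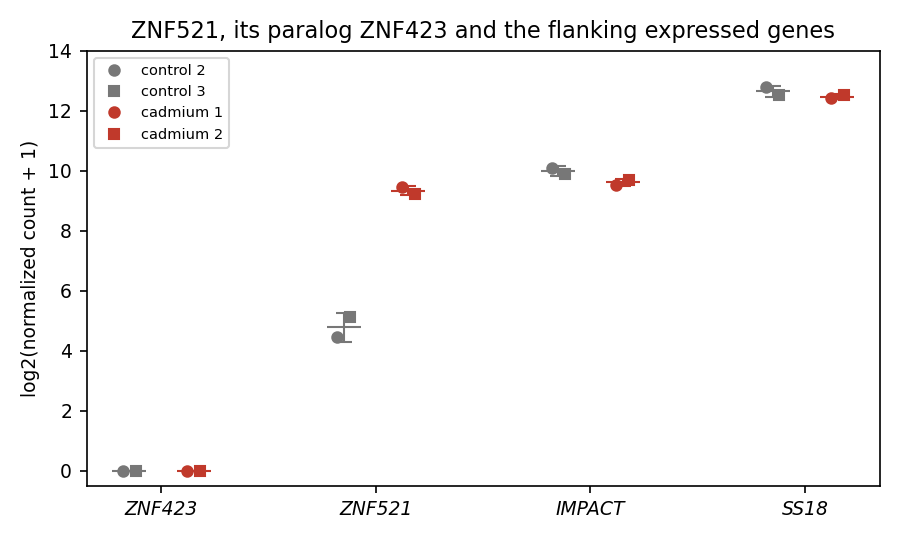
Normalized counts of ZNF423, ZNF521 and the expressed genes flanking ZNF521, plotted on the vertical axis as log2(normalized count + 1) for each of the 4 libraries. Points are libraries, and lines are group means ± SD (n = 2 each). ZNF521 sits between 20.8 and 34.0 normalized counts in the controls and between 603 and 695 in the cadmium libraries, ZNF423 is at 0 throughout, and IMPACT and SS18 show no gap of that size.

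ZNF423 was not detected in either group. It had 0 reads in control 2, control 3, cadmium 1 and cadmium 2. A count of 0 allows up to 3 counts at the one-sided 95% limit, and the two-sided exact Poisson interval reaches 3.69. The limit of 3 corresponds to 0.0485 to 0.0578 CPM (counts scaled to the library total) in these libraries. It treats reads as independent although both mates of a pair were counted, so it is too low. No fold change can be given for ZNF423, and a level below that limit was not detectable at this depth. No read was thus assigned to the paralog in the libraries where ZNF521 was high.

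The genes that overlap the pair were nearly silent. Of the 3 that lie within the ZNF521 span, ENSG00000279439 and ENSG00000264434 had 0 reads in all libraries. The antisense long non-coding RNA ENSG00000285595 had 2 reads in cadmium 1 and 0 elsewhere. None of the 3 shared an exonic base with ZNF521. The 5 genes within ZNF423, namely the pseudogenes ADAM3B, MRPS21P7 and MRPS21P8 and the genes ENSG00000280131 and ENSG00000275155, were at 0 in all 4 libraries. Counting ignored strand, so antisense reads within ZNF521 exons would have been added to ZNF521.

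ZNF521 rose alone within a silent stretch of chromosome 18. Between the nearest expressed gene on either side, IMPACT and SS18, lie 1.56 Mb (chr18:24453532-26016252) with 17 other annotated genes. Of these, 14 had 0 reads in all libraries. The remaining 3 were HRH4 with 4 reads in control 2, ENSG00000285595 with 2 reads in cadmium 1, and LINC01915 with 2 reads in cadmium 2. No gene of the interval other than ZNF521 thus reached more than 4 reads in any library.

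IMPACT, a regulator of translation under amino acid shortage, lies 608 kb from ZNF521. Its normalized counts were 1095 and 944 in the controls and 737 and 830 in the cadmium libraries (log2 fold change -0.38, DESeq2 adjusted p 0.953). SS18, a subunit of SWI/SNF chromatin remodellers, lies 664 kb away on the other side. Its normalized counts were 7021 and 5863 in the controls and 5448 and 5910 in the cadmium libraries (log2 fold change -0.18, DESeq2 adjusted p 1.00). The groups overlapped for SS18, and IMPACT was somewhat lower in both cadmium libraries without passing the test.

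The comparison was then widened to the 20 nearest genes on each side that reached a mean of 50 normalized counts, which span 14.4 Mb. DESeq2 called 0 of these 40 neighbours at an adjusted p below 0.1, beside 1.14% of the 19816 genes tested. Of the 14357 genes that reached the same mean, 1.38% were called. An unadjusted DESeq2 p below 0.05 was found for 3 neighbours, beside 1372 of all genes tested. The quasi-likelihood test of edgeR called 0 of all 19241 genes it tested, so its 0 calls among the neighbours say nothing particular about the neighbours. The median log2 fold change of the neighbours was -0.15, with 13 above 0 and 27 below. It was -0.02 over all genes tested and -0.05 over the 14357 genes. The cadmium libraries lay outside the control range for 15 of the 40 neighbours (37.5%), 5 higher and 10 lower. Over all genes tested this held for 40.3%, 20.3% higher and 19.9% lower, and over the 14357 genes for 41.4%. Median log2 ratios of a cadmium over a control library for the neighbours ranged from -0.20 to 0.05 over the 4 pairings. The neighbours thus showed no shared upward shift in any pairing near the size of the ZNF521 difference.

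The neighbours with the largest differences were chosen after their values were seen. Their log2 fold changes between the groups were far smaller in size than that of ZNF521. CDH2, the mesenchymal adhesion protein N-cadherin, had normalized counts of 39.7 and 29.8 in the controls and 102 and 75.0 in the cadmium libraries. Its log2 fold change was 1.34 with a DESeq2 adjusted p of 0.480, so the separation of its groups did not pass the test. DTNA, a dystrophin-associated protein, had 45.4 and 427 normalized counts in the controls and 529 and 604 in the cadmium libraries. Control 3 thus resembled the cadmium libraries for DTNA, and control 2 was the low library. The DTNA log2 fold change was 1.26. On the scale of log2(normalized count + 1), DTNA was higher than in control 2 by 3.51 in cadmium 1 and 3.70 in cadmium 2. GATA6-AS1, at the other end, had 155 and 29.8 normalized counts in the controls and 13.9 and 32.6 in the cadmium libraries (log2 fold change -1.99, DESeq2 adjusted p 0.556).

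**Figure D2:**
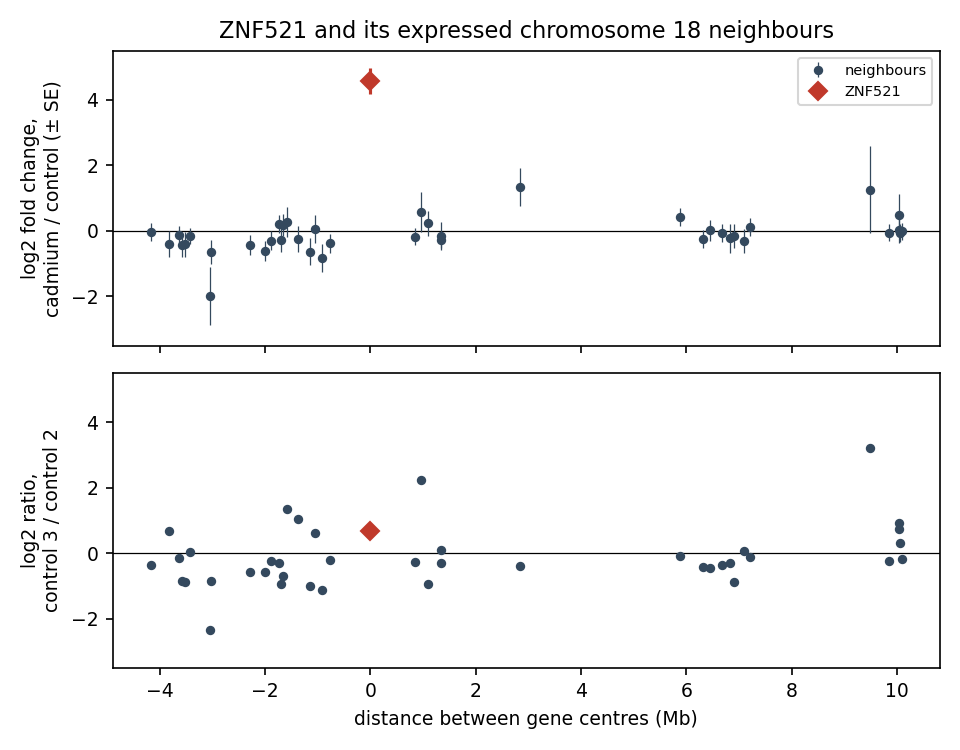
Each point is a gene, placed by the distance between its centre and that of ZNF521 in Mb. The upper panel gives the log2 fold change of cadmium over control with its standard error, and the lower panel the log2 ratio of control 3 over control 2. ZNF521 stands at 4.57 in the upper panel while its 40 neighbours lie between -1.99 and 1.34, and in the lower panel it lies among them.

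Genes of chromosome 18 differed between the controls. Among the 195 other genes of the chromosome above the same minimum, the median log2 ratio of control 3 over control 2 was -0.70. These include the 40 neighbours, whose own median was -0.28, and ZNF521 itself stood at 0.71. DESeq2 called 3 of the 195 (1.54%), beside 1.14% of all genes tested and 1.38% of the 14357 genes above the same minimum. The 3 were higher SERPINB2 and lower PSTPIP2 and NFATC1. Between the controls, ZNF521 thus went the opposite way from both medians. Around ZNF423, none of the 40 nearest expressed genes on chromosome 16 was called by DESeq2. This stands beside 1.14% of all genes tested and 1.38% of those above the minimum. An unadjusted DESeq2 p below 0.05 was found for 4 of these 40 genes, beside 1372 of all 19816 genes tested. The expressed genes flanking ZNF423 were N4BP1, with a log2 fold change of -0.32, and CNEP1R1, with one of -0.20.

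The genes that work with ZNF521 and ZNF423 were followed in 8 lists of 100 genes, of which 90 had a read and 81 were tested. DESeq2 called 2 of the 81 (2.47%), beside 1.14% of all genes tested, and both were lower in cadmium, BAMBI and NOTCH3, beside 0.535% of all genes called lower. The lists held 0 genes called higher, beside 0.601% of all genes. An unadjusted DESeq2 p below 0.05 was found for 9 genes, beside 1372 of all 19816 genes tested. These values over all genes also stand beside the counts given for each list below. The cadmium libraries lay outside the control range for 28 of the 81 (34.6%), 8 higher and 20 lower, beside 40.3% of all genes. The median log2 fold change of the tested genes was -0.29. The highest was 2.1 for BMP2, named for this rank, which had 16.1 and 0 normalized counts in the controls and 38.8 and 30.6 in the cadmium libraries and did not pass the test (DESeq2 adjusted p 0.901).

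The count of partners called depended on the controls. With control 2 left out 18 genes of the lists were called, while calls over all genes rose to 1150 higher and 1161 lower. With control 3 left out 44 were called, while calls over all genes rose to 2678 higher and 3511 lower. Calls thus rose both in the lists and over all genes. The increases were not compared as shares of the genes tested, so whether the partners rose more was not tested. EdgeR called none of the partners, and it called 0 of all 19241 genes it tested.

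EBF factors, which both proteins bind, were scarce apart from EBF4. EBF1, the classic partner in B cells and fat, had 0 and 4.25 normalized counts in the controls and 6.97 and 1.97 in the cadmium libraries. EBF2 was at 0 in all 4 libraries, and EBF3 had reads in cadmium 2 only. EBF4 had 1314 and 419 normalized counts in the controls and 451 and 379 in the cadmium libraries. Control 2 alone was high for EBF4, and its log2 fold change went from -1.06 (DESeq2 adjusted p 0.682) to -0.02 without that library.

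In the BMP and SMAD pathway, which ZNF423 joins, 23 of 25 genes were tested and 1 was called. The median log2 fold change was -0.34, and it was -0.24 without control 2 and -0.07 without control 3. BAMBI, a decoy receptor that dampens BMP and TGF-beta signals, fell from 756 and 797 normalized counts in control cells to 358 and 367 in cadmium-resistant cells. Its log2 fold change was -1.10 (SE 0.29, DESeq2 adjusted p 0.0226), the libraries within each group lay close together, and the groups were well separated. The edgeR adjusted p was 0.620. The ligand BMP4 was abundant, with 14714 and 20956 normalized counts in the controls and 17235 and 14224 in the cadmium libraries. The target gene ID1 had 3597 and 27698 normalized counts in the controls and 8275 and 9025 in the cadmium libraries. Both cadmium values of ID1 fell between the controls, and its direction turned with the control used, from -1.68 on the log2 scale without control 2 to 1.25 without control 3.

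The receptor ACVRL1, a type I receptor that signals to SMAD1 and SMAD5, was in none of the lists and is described here after its values were seen. It had 5.68 and 0 normalized counts in the controls and 117 and 118 in the cadmium libraries. Its log2 fold change was 5.33 (SE 0.90, DESeq2 adjusted p 3.21e-06), from a control level near the floor, and the edgeR adjusted p was 0.587. None of the listed signalling receptors of types I and II was called. BMPR1A, also taken after its values were seen, had 2391 and 2535 normalized counts in the controls and 2123 and 2271 in the cadmium libraries.

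In the Hedgehog pathway, whose GLI factors ZNF521 can enhance, 13 of 15 genes were tested and 0 called by DESeq2, with 3 at an unadjusted p below 0.05. The median log2 fold change was -0.54, and it was -0.22 without control 3. The co-receptor CDON had 1442 and 5772 normalized counts in the controls and 2246 and 2441 in the cadmium libraries. The GLI inhibitor SUFU had 3441 and 2133 in the controls and 1856 and 1892 in the cadmium libraries. For CDON the groups overlapped, and for SUFU both cadmium libraries were lower without passing the test (DESeq2 adjusted p 0.819). The GLI factors, the listed gene SMO and the receptor PTCH1, also a target, were added after their values were seen. SMO was near the floor, with raw counts of 2 and 4 in the controls and 2 and 0 in the cadmium libraries. GLI2 had 375 and 880 normalized counts in the controls and 225 and 241 in the cadmium libraries, lower in both, with a log2 fold change of -1.43 (unadjusted p 0.00208, DESeq2 adjusted p 0.144). PTCH1 was also lower in both cadmium libraries, at 431 and 506 against 1145 and 599, with a log2 fold change of -0.90 (DESeq2 adjusted p 0.549). Neither passed the test. GLI1 had overlapping groups, with 17.0 and 48.9 normalized counts in the controls and 32.8 and 29.6 in the cadmium libraries.

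Among RUNX and osteoblast genes 5 of 10 were tested and 0 called by DESeq2, with 0 at an unadjusted p below 0.05. RUNX1, the blood counterpart of RUNX2, had 11929 and 7998 normalized counts in the controls and 8608 and 8270 in the cadmium libraries. HDAC3, the deacetylase through which ZNF521 restrains RUNX2, had 5579 and 4068 in the controls and 3960 and 4535 in the cadmium libraries. RUNX2 itself was higher in both cadmium libraries, at 3578 and 3465 against 2472 and 2943 in the controls, and is named after its values were seen, with a log2 fold change of 0.38 that did not pass the test (DESeq2 adjusted p 0.922).

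For the NuRD complex that ZNF521 recruits, all 15 subunit genes had reads and DESeq2 called 0 of them, with 1 at an unadjusted p below 0.05. The median log2 fold change was -0.12, and it was 0.10 without control 2 and -0.33 without control 3. The remodeller CHD3 had 14002 and 18308 normalized counts in the controls and 17009 and 15037 in the cadmium libraries. The scaffold subunit GATAD2A had 17053 and 11424 in the controls and 13613 and 13099 in the cadmium libraries. Both genes had overlapping groups. Other zinc finger factors with a FOG-type motif were not called either (0 of 6 tested by DESeq2, 0 at an unadjusted p below 0.05). ZNF827 had 1515 and 2004 normalized counts in the controls and 2006 and 1708 in the cadmium libraries, and the GATA cofactor ZFPM1 had 571 and 624 against 454 and 413.

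Adipocyte commitment genes, on which the paralogs act in opposite directions, gave 0 calls of 7 tested with DESeq2 and 0 at an unadjusted p below 0.05. CEBPB, an early adipogenic factor, had 4801 and 4865 normalized counts in the controls and 6405 and 5379 in the cadmium libraries. PPARG, the master regulator of fat cells, had 2906 and 5035 in the controls and 4667 and 4661 in the cadmium libraries. The median of the list was -0.83 on the log2 scale and turned to 0.28 without control 3, and the fat cell hormone gene ADIPOQ was at 0 in all 4 libraries.

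Among the retinoid, Notch and DNA damage partners of ZNF423, 11 of 13 genes were tested and 1 was called. NOTCH3, a receptor of the Notch pathway, fell from 627 and 352 normalized counts in control cells to 152 and 106 in cadmium-resistant cells (log2 fold change -1.93, SE 0.44, DESeq2 adjusted p 0.00312), and the edgeR adjusted p was 0.620. NOTCH2 had 25020 and 19467 normalized counts in the controls and 18999 and 19529 in the cadmium libraries, so its groups overlapped. PARP1, a DNA damage sensor that ZNF423 binds, had 22415 and 16470 in the controls and 15170 and 16525 in the cadmium libraries.

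**Figure D3:**
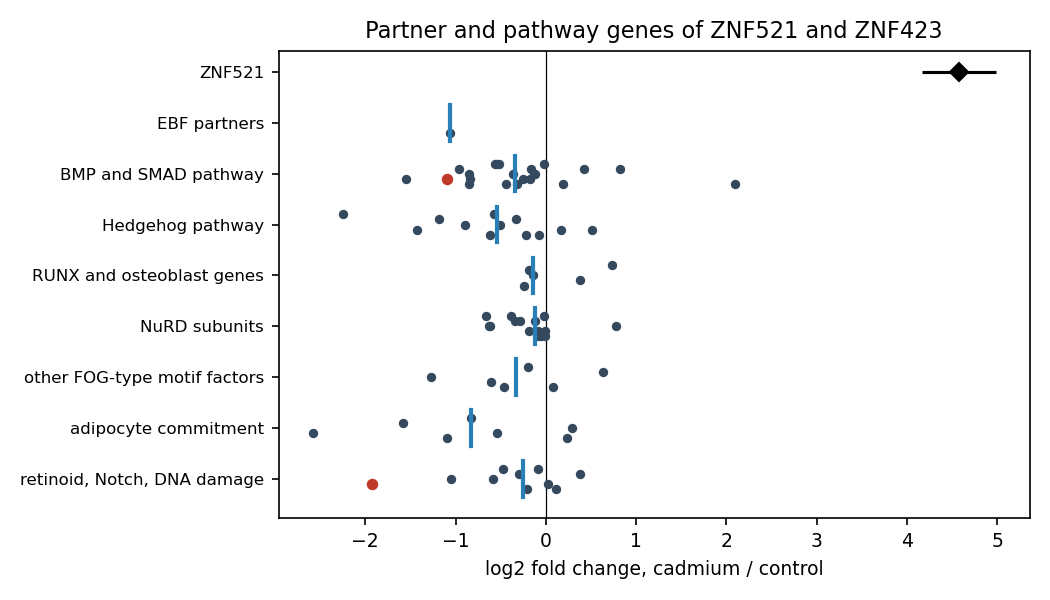
Log2 fold changes of cadmium over control for the partner and pathway genes whose mean normalized count reached 10, 1 point per gene, with blue bars at the list medians. Red points are BAMBI and NOTCH3, the 2 genes called by DESeq2, and the diamond is ZNF521 with its standard error. ZNF521 at 4.57 lies to the right of all plotted partner genes, of which the highest is BMP2 at 2.1.

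Markers of cells in which ZNF521 is well known were examined beside it. DESeq2 called 0 genes in the marker lists, beside 1.14% of all genes tested. Of the haematopoietic markers GATA1 was at 0 in all 4 libraries, and the summed level of the list was 1.90 and 3.49 TPM in the controls and 2.84 and 3.65 TPM in the cadmium libraries. All 8 fibroblast markers had a read, with a summed level of 13.6 and 16.7 TPM in the controls and 11.6 and 14.2 TPM in the cadmium libraries. Of 6 neural progenitor markers 3 had a read, DCX, OLIG2 and SOX1 were at 0, and the summed level was 48.5 and 53.1 TPM in the controls and 79.9 and 71.7 TPM in the cadmium libraries. The 2 tested neural genes were both higher in both cadmium libraries, as were 20.3% of all genes tested, and 1 had an unadjusted DESeq2 p below 0.05. Their median log2 fold change was 0.82, and it was 0.45 without control 2 and 1.64 without control 3. NES, an intermediate filament of many cultured cells, had 3688 and 3590 normalized counts in the controls and 5379 and 5060 in the cadmium libraries (log2 fold change 0.52, DESeq2 adjusted p 0.612). The neural stem cell transcription factor SOX2 had 16.1 and 87.2 in the controls and 127 and 97.7 in the cadmium libraries (log2 fold change 1.13, DESeq2 adjusted p 0.927). Control 2 alone was low for SOX2, and control 3 lay near cadmium 2. The part of other cells in the ZNF521 rise was not tested.

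The 5 genes whose pattern over the 4 libraries was closest to that of ZNF521 were found among 14356 other genes that reached a mean of 50 normalized counts. Likeness was the Euclidean distance of log2(normalized count + 1) after centring each gene on its mean. A small distance needs a rise of the same size in the same libraries, so the values are given with no test. SERPINB2, an inhibitor of plasminogen activators on the same chromosome 38.5 Mb away, was closest at a distance of 0.670, with 3.78 and 8.51 normalized counts in the controls and 110 and 175 in the cadmium libraries. TIE1 followed at 0.715, with 5.68 and 18.1 in the controls and 347 and 343 in the cadmium libraries. Both genes were, like ZNF521, low in the controls, with control 3 above control 2.

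The next distances were more than 2-fold larger. TNFSF18, a ligand of the T cell receptor GITR, stood at 1.59 with 245 and 407 normalized counts in the controls and 2892 and 2138 in the cadmium libraries. The long non-coding RNA POU2F2-AS2 stood at 1.64 with 3.78 and 23.4 against 125 and 104. CNKSR2, a scaffold of Ras signalling, stood at 1.72 with 15.1 and 14.9 against 120 and 117. TNFSF18 was the only one of the 5 that was above 100 normalized counts in both controls. SERPINB2, TIE1, POU2F2-AS2 and CNKSR2 had control means below 50 and reached the minimum mean only through the cadmium libraries.

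**Figure D4:**
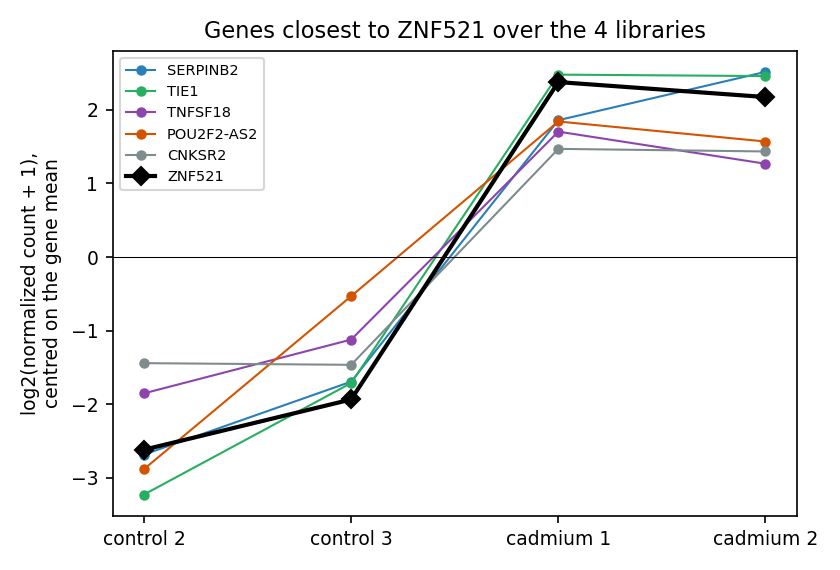
Log2(normalized count + 1), centred on each gene's mean, for ZNF521 and its 5 closest genes in the 4 libraries; lines join the values of 1 gene and imply no order. SERPINB2 (distance 0.670) and TIE1 (0.715) run closest to ZNF521, and TNFSF18, POU2F2-AS2 and CNKSR2 lie at 1.59 to 1.72.

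Promoter windows of RefSeq (GRCh38.p14), from 250 bases before to 50 after a gene start, were searched on both strands for motifs of factor families that this study examined. These were the metal response element cores TGCACNC and TGCGCNC, the AP-1 motif TGANTCA and the forkhead motif TGTTTAC, and no motif contains another. They occur in 12.1%, 19.97%, 7.71% and 3.42% of 35116 windows. Windows were read for ZNF423 and the 5 closest genes, and none was read for ZNF521. Of these, 1 of 2 ZNF423 windows held TGCACNC, 170 bases before the start, and the SERPINB2 window held TGANTCA, 102 bases before the start. Both are printed with 30 bases on either side and the match in capitals, since SERPINB2 is the gene closest to ZNF521 and ZNF423 is the silent paralog. They lie at chr16:49858053-49858119 on the minus strand and chr18:63887573-63887639 on the plus strand.
ZNF423: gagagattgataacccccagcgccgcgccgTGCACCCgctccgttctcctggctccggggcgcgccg
SERPINB2: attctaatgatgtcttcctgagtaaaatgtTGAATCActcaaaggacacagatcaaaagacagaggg

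The windows of TIE1, TNFSF18, POU2F2-AS2 and CNKSR2 held none of these letters. A match describes the sequence only, and ZNF423 had 0 reads in every library despite its match.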

How the data were processed

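RNA-seq libraries, 2 of control and 2 of cadmium-resistant cells, were analysed. The labels name the molecule as genomic DNA, but the series' design and the study's methods describe RNA-seq, and the counts were read as such. According to the methods and the header, the authors trimmed read pairs, mapped them to hg38 using HISAT2 and counted them over Ensembl genes using featureCounts 2.0.1. The deposited counts are raw. Default options apply: a gene's exons are summed, strand is not used, reads with several positions or several genes are left out, and the 2 mates of a pair count separately (small counts were mostly even). Intervals and floors cover counting error only. They treat mates as independent reads, so the intervals are too narrow and the floors too low.

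The control columns are numbered 2 and 3 and the labelled controls 1 and 2, so these columns were given the control group but no sample. A gene name table gave symbols for 61369 of 61541 genes. Counts were fitted over the whole table by DESeq2 1.42.0, run in R 4.3.3 (group as the only term, two-sided Wald test, median-of-ratios size factors, independent filtering, Benjamini-Hochberg adjustment, adjusted p below 0.1), as the study used DESeq2. Genes with a mean below 7.69 normalized counts were filtered out. P-values measure the spread between these libraries. Alternatives were the edgeR 4.0.16 quasi-likelihood test with TMM factors, TMM factors in DESeq2, no independent filtering, at least 10 counts in 2 libraries, halved counts and leaving out each library, where the lone library is assumed to vary like the other group. The scripts were tested on simulated data.

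Named genes were ZNF521, ZNF423, their overlapping genes and nearest expressed genes, the called genes and the 2 of highest mean normalized count in each list, and the 5 closest patterns; any other gene was chosen after its values were seen. List medians used genes that reached a mean of 10 normalized counts. A marker gene is not reported here. Members and lists were chosen with earlier results of these data known. Coordinates are 1-based on hg38. Coding sequences came from GENCODE and hg38, aligned with Biopython 1.88 in Python 3.11.15, and promoters from RefSeq.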

Additional observations from a re-analysis of the deposited data

How the results depend on the processing

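The direction of ZNF521 held in 9 of 9 alternatives, and its log2 fold change ranged from 4.25 (without control 2) to 4.95 (without control 3). Calls over all genes, 119 higher and 106 lower, became 0 and 0 with edgeR, whose adjustment left none although 1506 genes had an unadjusted p below 0.05 (1372 with DESeq2). With 1 library left out they ranged from 9 to 2678 higher and from 5 to 3511 lower: without control 2 there were 1150 and 1161, without control 3 2678 and 3511, without cadmium 1 12 and 5, and without cadmium 2 9 and 5. In these fits the spread comes from the pair that remains. Calls among the neighbours and partner genes were not compared with those over all genes as shares of the genes tested. Whether calls rose more in either set than over all genes was therefore not tested. Neighbours called went from 0 to 4 without control 2 and 17 without control 3, where IMPACT (-0.49) and SS18 (-0.32) also passed the threshold, and stayed at 0 in the other alternatives. Partner genes called went from 2 to 0 with edgeR and ranged from 0 to 44 with 1 library left out, 18 without control 2, 44 without control 3 and 0 without either cadmium library. List medians moved by more than the spread between replicates in 10 cases, all of them with a library left out. ZNF423 gave no value under any alternative, since it had 0 reads. No paired analysis was possible because columns of the controls are numbered 2 and 3, unlike the labels. With 2 libraries per group, no library could be tested as an outlier.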

Other observations

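The other genes named ZNF and a number were set beside ZNF521. Of 475 such genes 27 had 0 reads in all libraries and 428 had a mean normalized count that allowed a test. DESeq2 called 3 of them (0.701%), 1 higher and 2 lower, beside 1.14% of all genes tested. Their median log2 fold change was 0.08, with 267 above 0 and 161 below, beside 47.4% above 0 over all 19816 genes tested. The tilt depended on control 2. Median log2 ratios of cadmium 1 and cadmium 2 were 0.25 and 0.20 over control 2, and -0.005 and -0.07 over control 3. The median log2 ratio of control 3 over control 2 was 0.27. ZNF165, a cancer-testis antigen, rose from 71.9 and 72.3 normalized counts in control cells to 338 and 251 in cadmium-resistant cells, with a log2 fold change of 2.03 (DESeq2 adjusted p 0.000215). ZNF488 fell from 1094 and 1259 to 339 and 514, with a log2 fold change of -1.46 (DESeq2 adjusted p 0.00371). ZNF662 had 116 and 20.2 normalized counts in the controls and 1.99 and 3.95 in the cadmium libraries, and its log2 fold change of -4.52 (DESeq2 adjusted p 0.0136) became -2.77 without control 2. These 3 genes were named after their values were seen, and edgeR called none of them, with an adjusted p of 0.620 for each.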
